A study of Mus musculus with 4 samples.

Results

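Genes for the subunits of the proteasome were followed in mouse blastocysts, in the inner cell mass (ICM, the embryonic side) and in the trophectoderm (TE, the extra-embryonic side), at 2 times labelled D10 and E4. The set was every protein-coding gene of the deposited table whose symbol is Psm, a letter from a to e and a number, which gave 42 genes of 21470. D10 ICM, E4 ICM, D10 TE and E4 TE had 5 libraries each, all wild type, with B6D2F1 fathers and ICR mothers and no agent or modified allele named. The title sets the times before and after diapause, the pause in which a blastocyst waits to implant. In the list of barcodes E4 is before and D10 is day 6, yet the protocol calls the embryos of every group diapause embryos, and this is unresolved. Tissue was taken with a system named HTlasr, which the labels leave undescribed. Reverse transcription added a barcode to each library, and the 5 libraries of a group then shared 1 PCR, so amplification pool and group cannot be told apart. D10 libraries came from 5 litters lacking a zona pellucida, the shell of the early embryo, and E4 libraries from 5 others, of which 2 had it and 3 lacked it. The number of embryos behind a library is not stated, and the spread that p-values measure may be partly technical.

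The proteasome degrades proteins that carry a ubiquitin chain. Its core is a barrel of stacked rings, in which outer alpha subunits form the gate and inner beta subunits cut the protein, and a regulatory particle with a ring of ATPases, a base and a lid receives, deubiquitinates and unfolds the substrate. Other activators bind the same barrel ends, and immune cells exchange the cutting subunits for inducible ones. Early embryos use the proteasome in clearing maternal proteins and in dividing.

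Total counts ran from 215055 to 1010354 in D10 ICM, from 159215 to 438906 in E4 ICM, from 449524 to 579016 in D10 TE and from 144276 to 506584 in E4 TE. Tissue labels were checked against lineage markers. The summed level of 8 epiblast markers ran from 644 to 1114 CPM (counts scaled to library size) in D10 ICM and 1501 to 2828 in E4 ICM, against 4.01 to 54.2 in D10 TE and 23.9 to 64.4 in E4 TE. That of 8 trophectoderm markers ran from 3441 to 5373 CPM in D10 ICM and 2050 to 2948 in E4 ICM, against 7089 to 9540 in D10 TE and 6972 to 7835 in E4 TE, so the ICM libraries also held trophectoderm transcripts. Of 8 leukocyte markers 6 were in the table, with 55 counts over the D10 ICM, 22 over the E4 ICM, 23 over the D10 TE and 7 over the E4 TE. Of 5 uterine epithelial markers 3 were in the table, summing to 142 to 316 CPM in D10 ICM, 57.5 to 186 in E4 ICM, 414 to 568 in D10 TE and 122 to 219 in E4 TE. Of 4 red cell genes 2 were in the table, with 128 counts over the D10 ICM, 2 over the E4 ICM, 2 over the D10 TE and 15 over the E4 TE. These were uneven between libraries, with a median sum of 1.65 CPM and a maximum of 130.1 in D10 ICM. In E4 TE the median was 0 and the maximum 80.6 CPM.

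Proteasome subunits together had a smaller mean share of all counts at D10 than at E4 in both tissues. In the ICM the 42 genes held 0.553, 0.660, 0.490, 0.731 and 0.562% of counts in the D10 libraries 1 to 5, against 1.15, 1.43, 0.943, 1.01 and 1.29% in the E4 libraries. The ICM groups did not overlap. In the TE they held 0.605, 0.585, 0.532, 0.749 and 0.564% in D10 libraries, against 0.843, 1.10, 0.698, 0.777 and 0.968% in E4 libraries, and these groups overlapped. The mean share was 0.599% ± 0.0955 in D10 ICM and 1.17% ± 0.198 in E4 ICM, 0.607% ± 0.0840 in D10 TE and 0.878% ± 0.160 in E4 TE (SD, n = 5 each). These shares are a description and were not tested. In such bulk libraries fewer cells of a type and less RNA per cell cannot be told apart.

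Shares also differed with depth inside the groups. In both E4 tissues replicates 3 and 4, the libraries with the highest totals, had the lowest shares, while in D10 ICM replicates 4 and 2, with the highest totals, had the highest shares. Among libraries with over 400000 counts the share was 0.660% and 0.731% in 2 D10 ICM libraries, against 0.943% and 1.01% in 2 E4 ICM libraries, and 0.532% to 0.749% in 5 D10 TE libraries, against 0.698% and 0.777% in 2 E4 TE libraries. The part of depth in the comparisons of D10 with E4 was not tested beyond a fit of these 11 libraries, given with each comparison. Its E4 libraries were replicates 3 and 4 of each tissue, all from litters without a zona. That fit therefore also leaves out both E4 litters with a zona, and depth and zona cannot be told apart in it.

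**Figure D1:**
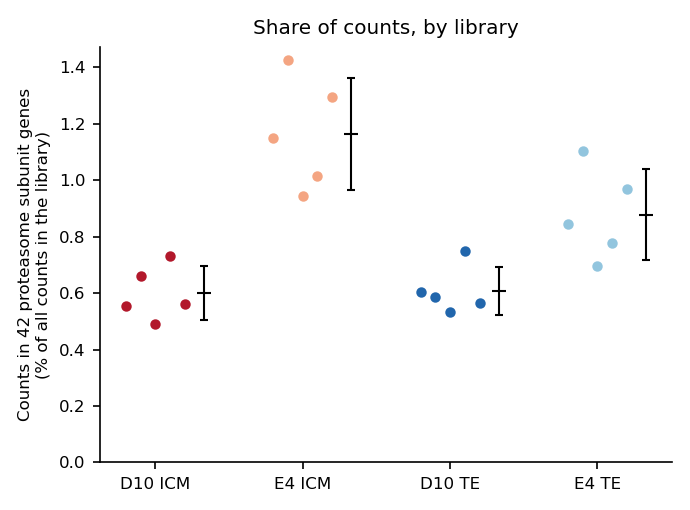
Share of all counts (%, y axis) held by the 42 proteasome subunit genes in each library, by group. Points are libraries in the order of replicates 1 to 5, and black bars are the mean ± SD (n = 5). All D10 ICM libraries lie below all E4 ICM libraries, while the D10 TE and E4 TE libraries overlap.

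Setting D10 against E4 within the ICM asked how subunit transcripts differed between the times on the embryonic side. Of the 42 genes 36 passed the filter on low counts, and of these 22 were lower at D10 and 0 higher (edgeR's quasi-likelihood test, adjusted p under 0.05). Over all 6943 genes tested 9.97% were lower and 13.7% higher. The median log2 fold change of the 36 was -0.78 (from -1.49 to 0.28), against -0.00 over all genes tested. At an unadjusted p under 0.05 25 were lower and 0 higher, where 16.2% of all genes tested were lower and 19.6% higher. DESeq2's Wald test gave 22 lower and 0 higher. All D10 ICM libraries lay below all E4 ICM libraries for 15 of the 36 genes, and 6.45% of all genes tested did so, while 0 subunits and 8.05% of all genes lay wholly above. In a fit of libraries with over 400000 counts, chosen after seeing the data and leaving 2 per time in the ICM, the median was -0.31 and 2 of 37 tested subunits were lower, Psma4 and Psme4, where 2.1% of 8003 genes were. Of the 22 calls 21 were missed there, with values of the 22 from -1.25 to 0.03, and for 17 of the 22 the change was over 1.5 times smaller or had turned. That fit has fewer libraries and more genes than the fit of all 20. Without the E4 litters with a zona the number lower was also smaller than 22, as given with the dependence on processing. Trophectoderm markers moved with this comparison, being higher at D10 for 4 of 8 genes and lower for 0 (median log2 fold change 0.71), and their part in it was not tested. Of 8 epiblast markers 5 were lower and 0 higher at D10, and of 7 primitive endoderm markers 1 was lower and 3 higher. The summed level of the 7 ran from 4899 to 7472 CPM in D10 ICM, against 1509 to 2926 in E4 ICM, without overlap. The part of epiblast and primitive endoderm cells in this comparison was not tested either.

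The same comparison in the TE asked this of the extra-embryonic side. There 11 of 36 genes were lower at D10 and 0 higher (edgeR's quasi-likelihood test), against 9.89% lower and 11.9% higher over all genes tested. The median log2 fold change was -0.43 (from -1.43 to 0.24), against 0.02 over all genes tested. At an unadjusted p under 0.05 18 were lower and 0 higher, where 15.6% of all genes tested were lower and 18.4% higher. DESeq2's Wald test gave 11 lower and 0 higher. All D10 TE libraries lay below all E4 TE libraries for 9 genes, and 6.5% of all genes tested did so, while 0 subunits and 8.67% of all genes lay wholly above. Leaving out the 2 E4 litters with a zona, 7 genes were lower, where 7.18% of all genes were. In the 7 TE libraries with over 400000 counts 6 of 37 were lower, where 6.65% of all genes were, and the median was -0.37. Markers moved here too: of 8 trophectoderm markers 2 were higher and 1 lower at D10, and Wfdc2, the 1 uterine epithelial marker tested, was higher (1.53 ± 0.26, adjusted p = 0.000106), and their part was not tested. Of the 22 subunits lower in the ICM and the 11 lower in the TE, 10 were on both lists, 45.5% of the first and 90.9% of the second, and Psma6 was on the TE list only. Over all genes tested 202 were lower in both tissues, 29.2% of the ICM list and 29.4% of the TE list.

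**Figure D2:**
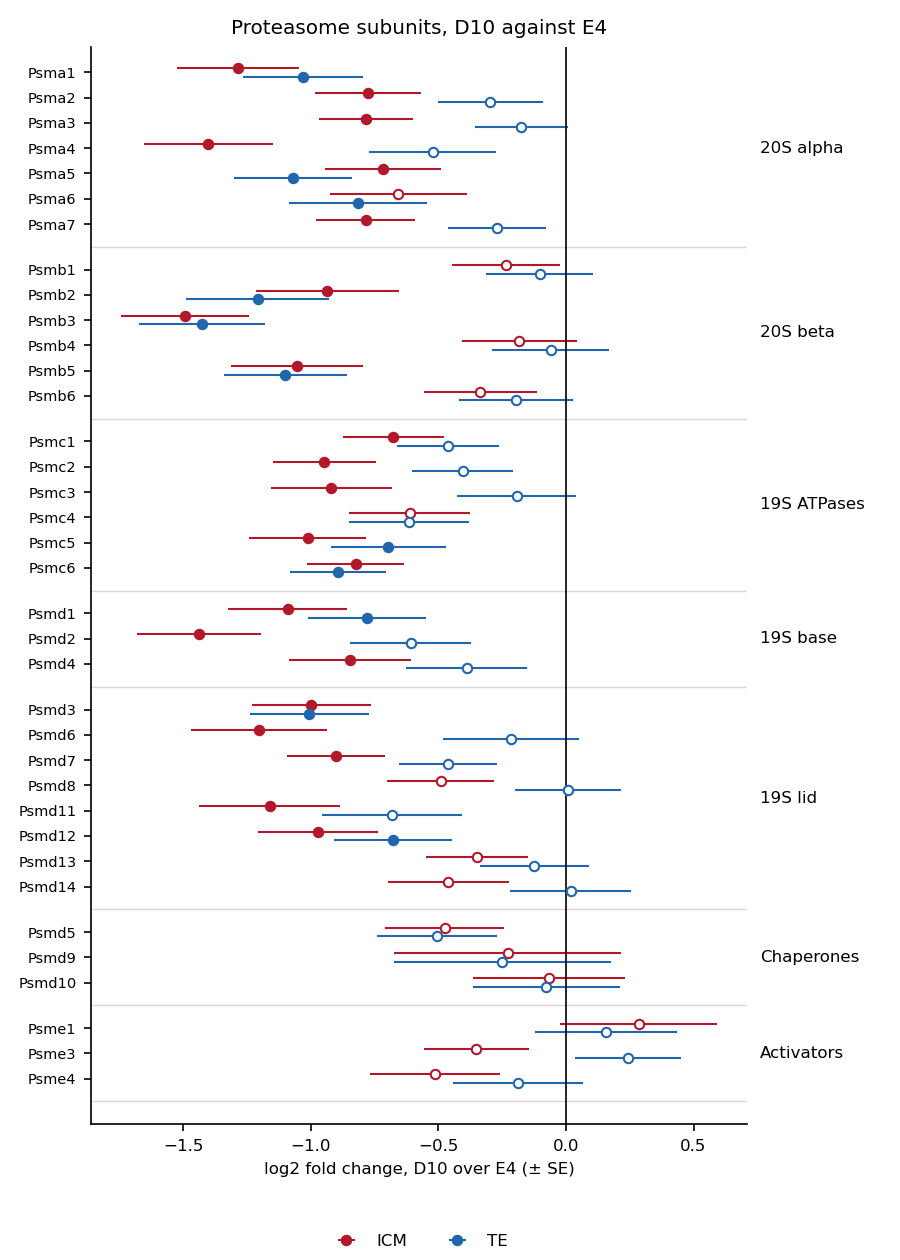
Log2 fold change of D10 over E4 (x axis, ± SE) of the 36 tested proteasome subunits, grouped by class, in the ICM (red) and the TE (blue). Filled points passed an adjusted p of 0.05, which held for 22 genes in the ICM and 11 in the TE, all to the left of 0, while the chaperones and activators have open points in both tissues.

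Alpha subunits form the outer rings of the core and its gate. In the ICM 6 of 7 were lower at D10, with a median log2 fold change of -0.78, and in the TE 3 of 7, with a median of -0.52. The summed level of the 7 genes was 1802 ± 295 CPM in D10 ICM and 3296 ± 596 in E4 ICM, 1843 ± 168 in D10 TE and 2624 ± 469.5 in E4 TE (SD, n = 5 each). Psma1 (ENSMUSG00000030751, GRCm38 chromosome 7, 114264606 to 114276118, minus strand), an alpha subunit, had 214, 244, 216, 240.3 and 116 CPM in D10 ICM libraries, against 463, 669, 345, 447 and 624 CPM in E4 ICM libraries. In the TE Psma1 had 239, 230.4, 148, 253 and 238 CPM in D10 libraries, against 437, 589, 326, 345 and 594 CPM in E4 libraries. Its D10 libraries lay below all E4 libraries in either tissue (log2 fold change -1.28 ± 0.24 in the ICM, adjusted p = 0.000343, and -1.03 ± 0.24 in the TE, adjusted p = 0.00231).

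Psma4 (ENSMUSG00000032301, GRCm38 chromosome 9, 54950790 to 54958030, plus strand) fell on the embryonic side. Its level was 90.3, 56.03, 49.9, 59.8 and 27.9 CPM in D10 ICM libraries, against 146, 154, 148, 134 and 176 CPM in E4 ICM libraries. It had 106, 77.5, 64.2, 55.9 and 46.4 CPM in D10 TE libraries, against 115, 116, 97.4, 112 and 57.2 CPM in E4 TE libraries. The ICM groups were apart (log2 fold change -1.40 ± 0.25, adjusted p = 0.000281), and it is the alpha subunit whose ICM call held in the libraries with over 400000 counts. The TE groups overlapped (-0.52 ± 0.25, adjusted p = 0.138).

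Psma3 likewise had 157, 241, 222, 251 and 199.7 CPM in D10 ICM libraries, against 374, 421, 338, 345 and 387 CPM in E4 ICM libraries, with no overlap (log2 fold change -0.78 ± 0.18, adjusted p = 0.00294). In the TE it had 237, 257, 169, 319.7 and 199 CPM in D10 libraries, against 270.5, 294, 248, 261 and 265 CPM in E4 libraries, which overlapped (-0.17 ± 0.18, adjusted p = 0.536). Psma5 (ENSMUSG00000068749, GRCm38 chromosome 3, 108256926 to 108279974, plus strand) also passed between the tissues at D10, given with that comparison. It had 199.6, 335, 310.2, 271 and 437 CPM in D10 ICM libraries, against 589.6, 530.2, 396, 397 and 649 CPM in E4 ICM libraries. Its level was 115, 198, 146, 208 and 169 CPM in D10 TE libraries, against 437, 452, 243, 325 and 308 CPM in E4 TE libraries. The D10 TE libraries lay below all E4 TE libraries, while in the ICM 1 D10 library lay among the E4 libraries (log2 fold change -1.07 ± 0.23 in the TE, adjusted p = 0.0015, and -0.72 ± 0.23 in the ICM, adjusted p = 0.0236). The ICM call for Psma5 was lost in 7 of 25 alternatives, among them leaving out E4 ICM replicate 1, 2 or 5 or D10 ICM replicate 1 or 4 (adjusted p 0.0503 to 0.0721). Psma2 and Psma7 were lower in the ICM (log2 fold change -0.78 ± 0.21 and -0.79 ± 0.19, adjusted p = 0.00788 and 0.0044), and Psma6 in the TE (-0.81 ± 0.27, adjusted p = 0.0316), a call lost in 6 of 25 alternatives. In the other tissue these 3 had -0.30 ± 0.21, -0.27 ± 0.19 and, for Psma6 in the ICM, -0.66 ± 0.27 (adjusted p = 0.325, 0.338 and 0.0766).

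Beta subunits form the inner rings, where Psmb5, Psmb6 and Psmb7 carry the cutting sites. Of the 6 tested, 3 were lower at D10 in the ICM and the same 3 in the TE, namely Psmb2, Psmb3 and Psmb5. The other 3, Psmb1, Psmb4 and Psmb6, had log2 fold changes of -0.23 ± 0.21, -0.18 ± 0.23 and -0.34 ± 0.22 in the ICM and of -0.10 ± 0.21, -0.06 ± 0.23 and -0.20 ± 0.22 in the TE, and none passed (adjusted p from 0.295 to 0.891). That these 3 differ from Psmb2, Psmb3 and Psmb5 was not tested.

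Upstream stretches are shown for a subunit lower in both tissues with the most negative change (Psmb3) and for the pair of cutting subunits of which Psmb5 was called and Psmb6 was not. They are RefSeq sequences of build GRCm38.p6, given 5′ to 3′ on the strand of the gene, and end before the annotated gene. Capitals mark matches to TGACNNNGC, the element bound by the NRF factors that control proteasome genes, and to CCAAT, the box bound by NF-Y. Both strands were searched and the motifs share no bases here.
Psmb3 (chr11:97703184-97703398, plus strand): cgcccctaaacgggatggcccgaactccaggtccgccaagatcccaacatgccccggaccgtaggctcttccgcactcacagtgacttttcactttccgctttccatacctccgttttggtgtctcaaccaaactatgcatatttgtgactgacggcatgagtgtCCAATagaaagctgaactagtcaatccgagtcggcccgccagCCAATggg
Psmb5 (chr14:54618023-54618245, minus strand): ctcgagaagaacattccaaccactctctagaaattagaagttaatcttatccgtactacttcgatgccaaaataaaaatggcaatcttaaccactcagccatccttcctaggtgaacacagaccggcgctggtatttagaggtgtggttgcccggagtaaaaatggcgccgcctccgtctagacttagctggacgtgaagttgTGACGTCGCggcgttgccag
Psmb6 (chr11:70525107-70525356, plus strand): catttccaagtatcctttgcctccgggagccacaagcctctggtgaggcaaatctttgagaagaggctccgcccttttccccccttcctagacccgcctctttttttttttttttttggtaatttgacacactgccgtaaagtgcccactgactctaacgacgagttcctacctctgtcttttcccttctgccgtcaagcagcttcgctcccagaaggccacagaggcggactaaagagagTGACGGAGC
Psmb5, called, and Psmb6, not called, each held TGACNNNGC, beginning 47 and 9 bases before the RefSeq start, and Psmb3 held CCAAT at 85 and 43 bases before it. Of 35 subunit genes with a RefSeq promoter and the 250 bases before the start searched, 5 held TGACNNNGC (14.3%), against 11.5% of 27025 genes, and 14 held CCAAT (40.0%), against 37.5%. These are matches of letters and not shown sites.

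Psmb3 (ENSMUSG00000069744, GRCm38 chromosome 11, 97703399 to 97713500, plus strand), a beta subunit without a cutting site, had 90.3, 183, 127, 225 and 83.6 CPM in D10 ICM libraries, against 482, 410.1, 334, 347 and 533 CPM in E4 ICM libraries. In the TE it had 139, 133, 152, 197 and 188 CPM in D10 libraries, against 311, 527, 441, 331 and 579.5 CPM in E4 libraries. Neither tissue showed an overlap (log2 fold change -1.49 ± 0.25 in the ICM, adjusted p = 0.000134, and -1.43 ± 0.25 in the TE, adjusted p = 0.000158). Psmb2, another beta subunit without a cutting site, had 99.8, 130.2, 72.01, 173 and 46.4 CPM in D10 ICM libraries, against 247, 279, 153, 174 and 219 CPM in E4 ICM libraries. It had 83.96, 79.5, 78.2, 150.2 and 81.95 CPM in D10 TE libraries, against 196, 315, 207, 157 and 236 CPM in E4 TE libraries. The groups overlapped in the ICM and not in the TE (log2 fold change -0.94 ± 0.28 and -1.21 ± 0.28, adjusted p = 0.0167 and 0.00274). The ICM call of Psmb2 was lost in 4 of 25 alternatives, and its value was -0.07 (adjusted p = 0.923) in the libraries with over 400000 counts.

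Psmb5 (ENSMUSG00000022193, GRCm38 chromosome 14, 54614119 to 54618022, minus strand), which carries the chymotrypsin-like site, had 28.5, 64.3, 77.6, 76.6 and 32.5 CPM in D10 ICM libraries, against 139, 125, 114, 95.1 and 146 CPM in E4 ICM libraries. It had 74.8, 59.1, 82.2, 97.8 and 117 CPM in D10 TE libraries, against 149.6, 187, 170.4, 163 and 265 CPM in E4 TE libraries. Its groups did not overlap in either tissue (log2 fold change -1.05 ± 0.26 in the ICM, adjusted p = 0.00439, and -1.10 ± 0.24 in the TE, adjusted p = 0.00173). Psmb6 (ENSMUSG00000018286, GRCm38 chromosome 11, 70525367 to 70527858, plus strand), which carries the caspase-like site, had 371, 358, 338, 419 and 251 CPM in D10 ICM libraries, against 495, 522, 331, 298 and 572 CPM in E4 ICM libraries. It had 297, 206, 279, 335 and 379.7 CPM in D10 TE libraries, against 328, 439.6, 279.9, 249 and 436 CPM in E4 TE libraries, and overlapped in both. Psmb7, with the trypsin-like site, had 6 counts over D10 ICM, 10 over E4 ICM, 7 over D10 TE and 5 over E4 TE, and was not tested. By library Psmb7 had 14.3, 0, 0, 1.05 and 9.29 CPM in D10 ICM, against 12.7, 7.84, 4.63, 2.07 and 8.60 CPM in E4 ICM, and 1.83, 2.04, 2.01, 3.49 and 5.46 CPM in D10 TE, against 5.75, 4.15, 0, 5.98 and 0 CPM in E4 TE. The last exon of its longest coding transcript, 253 bases, lies wholly within exons of Nek6, which is read from the other strand, and as use of strand in counting is not stated its level is uncertain.

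**Figure D3:**
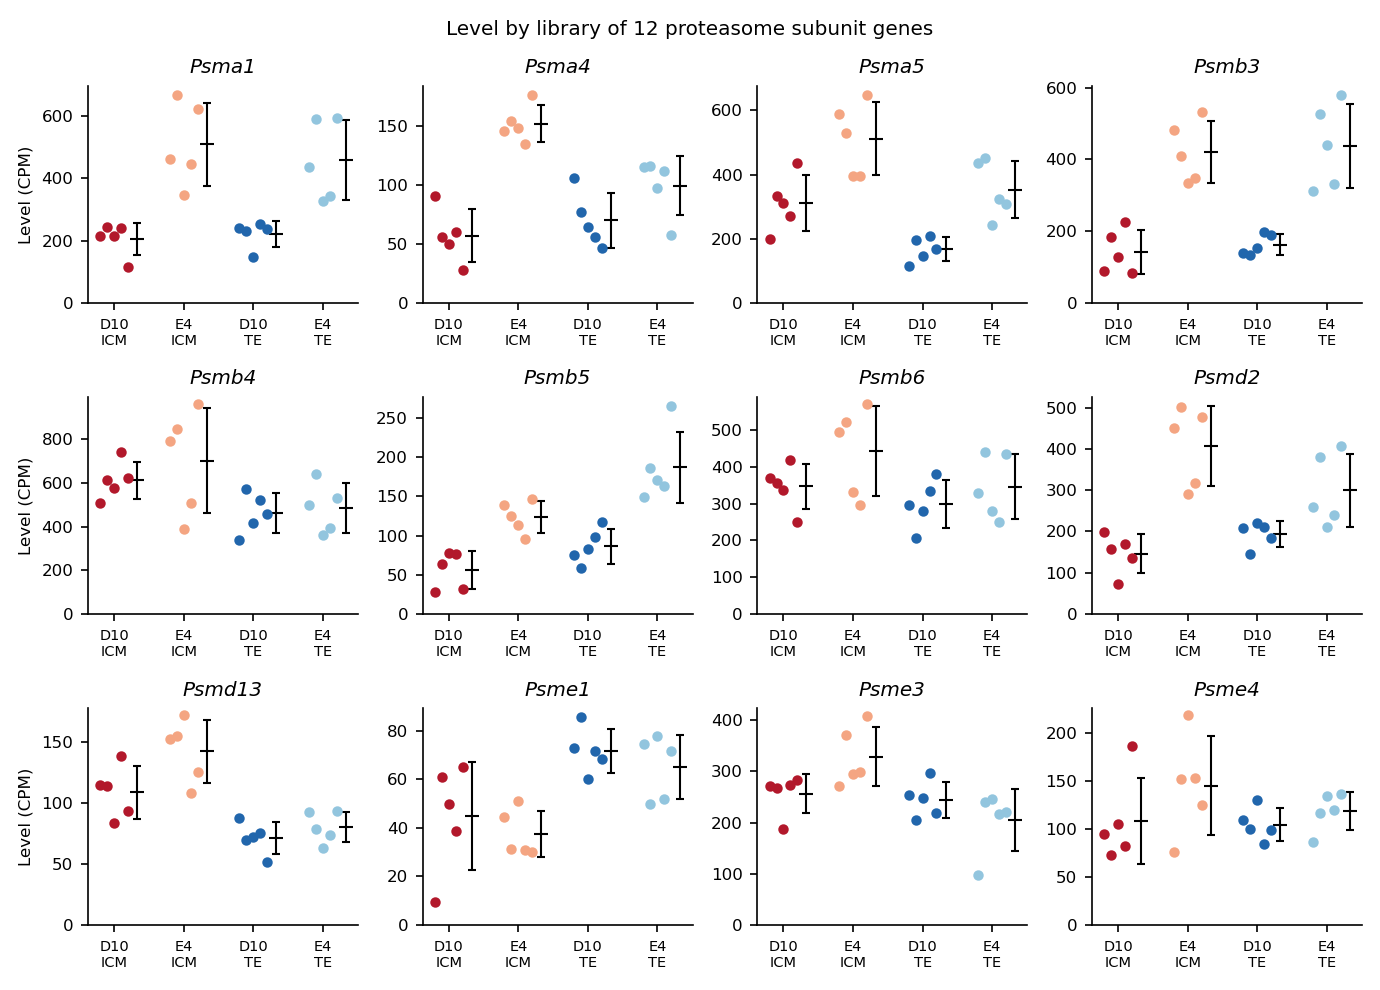
Level (CPM, y axis) of 12 proteasome subunit genes in each library, by group. Points are libraries in the order of replicates 1 to 5, black bars are the mean ± SD (n = 5), and each panel has its own axis from 0. Psma1, Psmb3 and Psmb5 are lower in D10 than in E4 libraries in both tissues, whereas those of Psmb4, Psmb6 and Psme1 overlap.

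The inducible beta subunits of the immunoproteasome were sparse. Psmb9 had 9.51, 4.94, 0, 2.10 and 0 CPM in D10 ICM libraries, against 12.7, 10.4, 4.63, 6.20 and 12.9 CPM in E4 ICM libraries, which are 7 and 14 counts (ratio 0.390, 95% interval 0.133 to 1.03, by exact Clopper-Pearson limits on counting error only). In the D10 TE Psmb9 had 0 counts, which allows up to 3 counts over the group or 1.21 CPM, and in the E4 TE 2 counts (0, 4.15, 0, 1.99 and 0 CPM by library). With 7 against 0 counts the exact lower limit of its D10 ICM to D10 TE ratio was 1.65, and it was 6.08-fold higher in E4 ICM than in E4 TE (95% interval 1.40 to 55.2). Psmb10 had 19.01, 8.24, 0, 11.5 and 23.2 CPM in D10 ICM libraries, against 19.02, 2.61, 4.63, 0 and 0 CPM in E4 ICM libraries, or 25 and 6 counts (ratio 3.25, 95% interval 1.30 to 9.68). In the TE Psmb10 had 3.65, 0, 0, 5.24 and 5.46 CPM in D10 libraries, against 0, 8.30, 9.74, 3.98 and 14.3 CPM in E4 libraries, or 7 and 10 counts. These intervals ignore the spread between libraries. With no filter on low counts Psmb9 passed between the D10 tissues (edgeR's quasi-likelihood test, adjusted p = 0.0357), and neither gene passed in any other of the 5 comparisons. Psmb11, the thymus-specific subunit, had 1 count in E4 ICM and 0 elsewhere, Psma8, the testis alpha subunit, had 15 counts in D10 ICM, 2 in E4 ICM, 9 in D10 TE and 1 in E4 TE, and Psmb8 was not analysed here.

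The 6 ATPases form the ring that unfolds substrates. In the ICM 5 of 6 were lower at D10, all but Psmc4 (-0.61 ± 0.24, adjusted p = 0.0625), with a median log2 fold change of -0.87. In the TE 2 of 6 were lower, Psmc5 and Psmc6, with a median of -0.54. Psmc6 (ENSMUSG00000021832, GRCm38 chromosome 14, 45329788 to 45349705, plus strand) had 138, 198, 166, 165 and 135 CPM in D10 ICM libraries, against 241, 399.6, 264, 221 and 305 CPM in E4 ICM libraries. It had 159, 149, 158, 187 and 153 CPM in D10 TE libraries, against 345, 315, 251, 253 and 351 CPM in E4 TE libraries. Both tissues were without overlap (log2 fold change -0.82 ± 0.19 in the ICM, adjusted p = 0.00269, and -0.89 ± 0.19 in the TE, adjusted p = 0.00118).

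Psmc5 had 71.3, 90.6, 66.5, 118 and 74.3 CPM in D10 ICM libraries, against 171, 227, 144, 159 and 185 CPM in E4 ICM libraries. It had 98.6, 99.9, 90.3, 145 and 65.6 CPM in D10 TE libraries, against 173, 195, 129, 129 and 207 CPM in E4 TE libraries. The ICM groups were apart and the TE groups overlapped (log2 fold change -1.01 ± 0.23 and -0.70 ± 0.23, adjusted p = 0.00222 and 0.0273). Psmc2 had 90.3, 130.2, 138, 167 and 107 CPM in D10 ICM libraries, against 336, 279, 181, 209 and 258 CPM in E4 ICM libraries, with no overlap (-0.95 ± 0.20, adjusted p = 0.00133). In the TE Psmc2 had 146, 149, 134, 189 and 134 CPM in D10 libraries, against 196, 228, 209, 173 and 193 CPM in E4 libraries (-0.41 ± 0.20, adjusted p = 0.149). Psmc1 and Psmc3 were lower in the ICM (-0.68 ± 0.20 and -0.92 ± 0.24, adjusted p = 0.0139 and 0.00614). Psmc1 lost the call in 4 of 25 alternatives and Psmc3 in 2, and in the libraries with over 400000 counts they had -0.16 and -0.06 (adjusted p = 0.748 and 0.936). In the TE Psmc1, Psmc3 and Psmc4 had -0.46 ± 0.20, -0.19 ± 0.23 and -0.61 ± 0.24 (adjusted p = 0.0998, 0.6 and 0.0617). Of the 340 bases of the longest Psmc3 transcript's final exon, 147 overlap Slc39a13, a gene of the other strand, which makes its level uncertain.

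The base also holds the large scaffold subunits Psmd1 and Psmd2 and the ubiquitin receptor Psmd4. All 3 were lower at D10 in the ICM, with a median log2 fold change of -1.09, and Psmd1 in the TE, where the median was -0.61. Psmd2 (ENSMUSG00000006998, GRCm38 chromosome 16, 20651652 to 20663414, plus strand) had 199.6, 157, 72.01, 170.0 and 135 CPM in D10 ICM libraries, against 450.1, 501, 289.5, 316 and 477 CPM in E4 ICM libraries. It had 208, 145, 221, 211 and 183 CPM in D10 TE libraries, against 259, 382, 212, 239 and 408 CPM in E4 TE libraries. The ICM groups did not overlap and those of the TE did (log2 fold change -1.44 ± 0.24, adjusted p = 0.000137, and -0.61 ± 0.24, adjusted p = 0.067). Psmd1 had 190.1, 186, 177, 273 and 329.7 CPM in D10 ICM libraries, against 545, 499, 357, 430.1 and 654 CPM in E4 ICM libraries. In the TE Psmd1 had 261, 173, 237, 342 and 246 CPM in D10 libraries, against 489, 552, 275, 375 and 494 CPM in E4 libraries. Again the groups were apart in the ICM only, with overlap in the TE (log2 fold change -1.09 ± 0.23 and -0.78 ± 0.23, adjusted p = 0.00148 and 0.0165). Psmd4 was lower in the ICM (-0.85 ± 0.24, adjusted p = 0.0118), and in the ICM libraries with over 400000 counts its value was 0.03, while in the TE it had -0.39 ± 0.24 (adjusted p = 0.258).

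The lid holds Psmd14, the enzyme that removes ubiquitin chains from substrates, on a frame of other subunits. In the ICM 5 of 8 lid genes were lower at D10 (median log2 fold change -0.94), namely Psmd3, Psmd6, Psmd7, Psmd11 and Psmd12. In the TE Psmd3 and Psmd12 were lower (median -0.34). Psmd14 itself did not pass in the ICM (-0.46 ± 0.24, adjusted p = 0.166) or the TE (0.02 ± 0.24, adjusted p = 0.973).

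Psmd3 (ENSMUSG00000017221, GRCm38 chromosome 11, 98682554 to 98695979, plus strand) had 190.1, 122, 99.7, 128 and 83.6 CPM in D10 ICM libraries, against 304, 274, 215, 201 and 267 CPM in E4 ICM libraries. It had 115, 112, 88.3, 136 and 79.2 CPM in D10 TE libraries, against 230.2, 257, 146, 165 and 300.5 CPM in E4 TE libraries. Both tissues were without overlap (log2 fold change -0.998 ± 0.23 and -1.01 ± 0.23, adjusted p = 0.00296 and 0.00269). Psmd7, the partner of Psmd14, had 157, 147, 127, 184 and 181 CPM in D10 ICM libraries, against 304, 384, 266, 234 and 314 CPM in E4 ICM libraries, with no overlap (-0.90 ± 0.19, adjusted p = 0.00137). In the TE Psmd7 had 159, 145, 108, 206 and 142 CPM in D10 libraries, against 219, 236, 199.6, 181 and 222 CPM in E4 libraries (-0.46 ± 0.19, adjusted p = 0.0861). Psmd6 had 47.5, 54.4, 99.7, 86.1 and 32.5 CPM in D10 ICM libraries, against 171, 159, 185, 118 and 120.4 CPM in E4 ICM libraries, also apart (-1.20 ± 0.27, adjusted p = 0.00189). In the TE Psmd6 had 108, 61.2, 62.2, 71.6 and 98.3 CPM in D10 libraries, against 74.8, 82.95, 134, 69.7 and 100.2 CPM in E4 libraries (-0.21 ± 0.27, adjusted p = 0.61). Psmd11 and Psmd12 had ICM changes of -1.16 ± 0.28 and -0.97 ± 0.23 (adjusted p = 0.00349 and 0.00375), and TE changes of -0.68 ± 0.27 and -0.68 ± 0.23 (adjusted p = 0.0764 and 0.0359). Psmd8 and Psmd13, both lid subunits, had -0.49 ± 0.21 and -0.35 ± 0.20 in the ICM and 0.01 ± 0.21 and -0.12 ± 0.21 in the TE, and passed in neither (adjusted p = 0.0923, 0.214, 0.99 and 0.862).

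Of the 3 chaperones and 3 activators tested, 0 were called at D10 against E4 in either tissue, where 9.97% of all genes were lower and 13.7% higher in the ICM and 9.89% and 11.9% in the TE. A difference from the other classes was not tested. The base assembly chaperones Psmd5, Psmd9 and Psmd10 had log2 fold changes from -0.48 to -0.07 in the ICM and from -0.51 to -0.08 in the TE. At an unadjusted p under 0.05 only Psmd5 in the TE passed, of the 6 in either tissue (-0.51, unadjusted p = 0.0402 and adjusted p = 0.125, edgeR's quasi-likelihood test), and DESeq2's Wald test called 0. At that unadjusted p 16.2% of all genes tested were lower and 19.6% higher in the ICM, and 15.6% and 18.4% in the TE. Psme1, a partner of Psme2 in the activator PA28, had 9.51, 60.98, 49.9, 38.8 and 65.01 CPM in D10 ICM libraries, against 44.4, 31.3, 50.96, 31.02 and 30.1 CPM in E4 ICM libraries, and 73.00, 85.6, 60.2, 71.6 and 68.3 CPM in D10 TE libraries, against 74.8, 49.8, 77.9, 51.8 and 71.5 CPM in E4 TE libraries. Its groups overlapped in both tissues (0.28 ± 0.31 in the ICM, adjusted p = 0.546, and 0.16 ± 0.28 in the TE, adjusted p = 0.737). Of the 228 bases of its last exon 13 overlap Emc9 on the other strand.

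Psme2 was under the filter, with 28 counts in D10 ICM, 14 in E4 ICM, 35 in D10 TE and 29 in E4 TE. By library it had 14.3, 4.94, 11.1, 16.8 and 18.6 CPM in D10 ICM, against 19.02, 13.1, 9.27, 0 and 8.60 CPM in E4 ICM, and 9.13, 24.5, 10.03, 15.7 and 10.9 CPM in D10 TE, against 11.5, 20.7, 17.04, 19.9 and 35.8 CPM in E4 TE. The last 500 bases of its transcript are 99.0% identical to those of Psme2b, so its counts are uncertain. Psme3, the nuclear activator, had 271, 267, 188, 274 and 283 CPM in D10 ICM libraries, against 273, 371, 294, 299.8 and 409 CPM in E4 ICM libraries, and 254, 206, 249, 297 and 219 CPM in D10 TE libraries, against 97.8, 241, 246, 217 and 222 CPM in E4 TE libraries. Psme4, the activator PA200, had 95.1, 72.5, 105, 81.9 and 186 CPM in D10 ICM libraries, against 76.1, 151, 218, 153 and 125 CPM in E4 ICM libraries, and 109.5, 99.9, 130.4, 83.9 and 98.3 CPM in D10 TE libraries, against 86.3, 116, 134, 119.5 and 136 CPM in E4 TE libraries. Neither passed between the times in either tissue (-0.35 ± 0.21 and -0.51 ± 0.26 in the ICM, adjusted p = 0.227 and 0.151, and 0.24 ± 0.21 and -0.19 ± 0.26 in the TE, adjusted p = 0.435 and 0.647), but in the 4 ICM libraries with over 400000 counts Psme4 was lower at D10 (log2 fold change -1.22, adjusted p = 0.0216).

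The difference of these changes between the tissues was tested for each gene as an interaction. With edgeR's quasi-likelihood test 0 of 36 subunits passed in either direction, against 3.15% of all genes tested for a more positive change in the ICM and 1.83% for a more negative one. At an unadjusted p under 0.05 the change was more negative in the ICM for 5 subunits and more positive for 0, and DESeq2's Wald test called 0. At that unadjusted p 9.38% of all genes tested were more negative and 9.95% more positive. The median difference was -0.27 (from -0.99 to 0.35), and 0.11 in the libraries with over 400000 counts. The most negative was that of Psmd6 (-0.99 ± 0.38, adjusted p = 0.131), a gene chosen after its value was seen. The larger count of lower subunits in the ICM than in the TE is therefore not shown to be a larger change.

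At D10, setting the ICM against the TE asked which subunits distinguished the tissues at the later time. Of 36 genes 2 were higher in the D10 ICM and 0 lower (edgeR's quasi-likelihood test), against 12.9% higher and 12.6% lower over all genes tested. The 2 were Psma5 (0.89 ± 0.23, adjusted p = 0.00525) and Psmd13 (0.63 ± 0.20, adjusted p = 0.0214). At an unadjusted p under 0.05 2 were higher and 3 lower, where 18.8% of all genes tested were higher and 17.5% lower. DESeq2's Wald test gave 2 higher and 0 lower. No subunit had all D10 ICM libraries above or below all D10 TE libraries, where 8.05% of all genes tested lay above and 8.27% below. Psmd13, a lid subunit (ENSMUSG00000025487, GRCm38 chromosome 7, 140881968 to 140898643, plus strand), had 114, 114, 83.1, 139 and 92.9 CPM in D10 ICM libraries, against 87.6, 69.3, 72.2, 75.1 and 51.9 CPM in D10 TE libraries, and the lowest ICM library was below the highest TE library. The call of Psmd13 at D10 was lost without D10 ICM replicate 4 or D10 TE replicate 5 (adjusted p 0.0519 to 0.0933), and with no filter on low counts. The median log2 difference of the 36 was -0.10, and 0.16 in the libraries with over 400000 counts, where Psma6 was also higher (0.77, adjusted p = 0.028).

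At E4 6 of 36 genes were higher in the ICM than in the TE and 0 lower, against 15.8% higher and 15.4% lower over all genes tested, so the share called higher was 16.7% and close to that of all genes. At an unadjusted p under 0.05 9 were higher and 2 lower, where 21.2% of all genes tested were higher and 20.3% lower. DESeq2's Wald test gave 5 higher and 1 lower, the lower one being Psme1 (edgeR -0.78 ± 0.31, adjusted p = 0.054). The median log2 difference was 0.27, against 0.03 over all genes tested. Psmd13 had 152, 154, 171, 108 and 125 CPM in E4 ICM libraries, against 92.1, 78.8, 63.3, 73.7 and 93.01 CPM in E4 TE libraries, with no overlap (0.86 ± 0.21, adjusted p = 0.00286). Of 26 alternatives it missed the threshold in 1, the fit of libraries with over 400000 counts (adjusted p = 0.0519), where 0 subunits passed. Its groups and those of Psma3, Psma4 and Psme3 lay wholly above, and those of Psmb5 wholly below, where 10.8% and 9.94% of all genes tested did. Psme3 was higher by 0.67 ± 0.21 (adjusted p = 0.0163), with E4 TE replicate 1 at 97.8 CPM, and lost the call in 6 of 26 alternatives. Among them were leaving out E4 TE replicate 1, E4 ICM replicate 2 or E4 ICM replicate 5 (adjusted p 0.0528 to 0.0638). The others were no filter on low counts, the E4 litters with a zona left out, and libraries with over 400000 counts. In the last Psme3 had 0.31 (edgeR's quasi-likelihood test, adjusted p = 0.446). Psma3, Psmc1, Psmd6 and Psmd7 passed narrowly (0.48, 0.52, 0.69 and 0.51, adjusted p from 0.0435 to 0.0492), and each lost the call in at least 21 of 26 alternatives. With litter as a block Psma4, Psma5 and Psmb4 also passed, which gave 9 higher and 0 lower. The share of all genes called in that fit is not given here, so the 9 are not set against it.

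**Figure D4:**
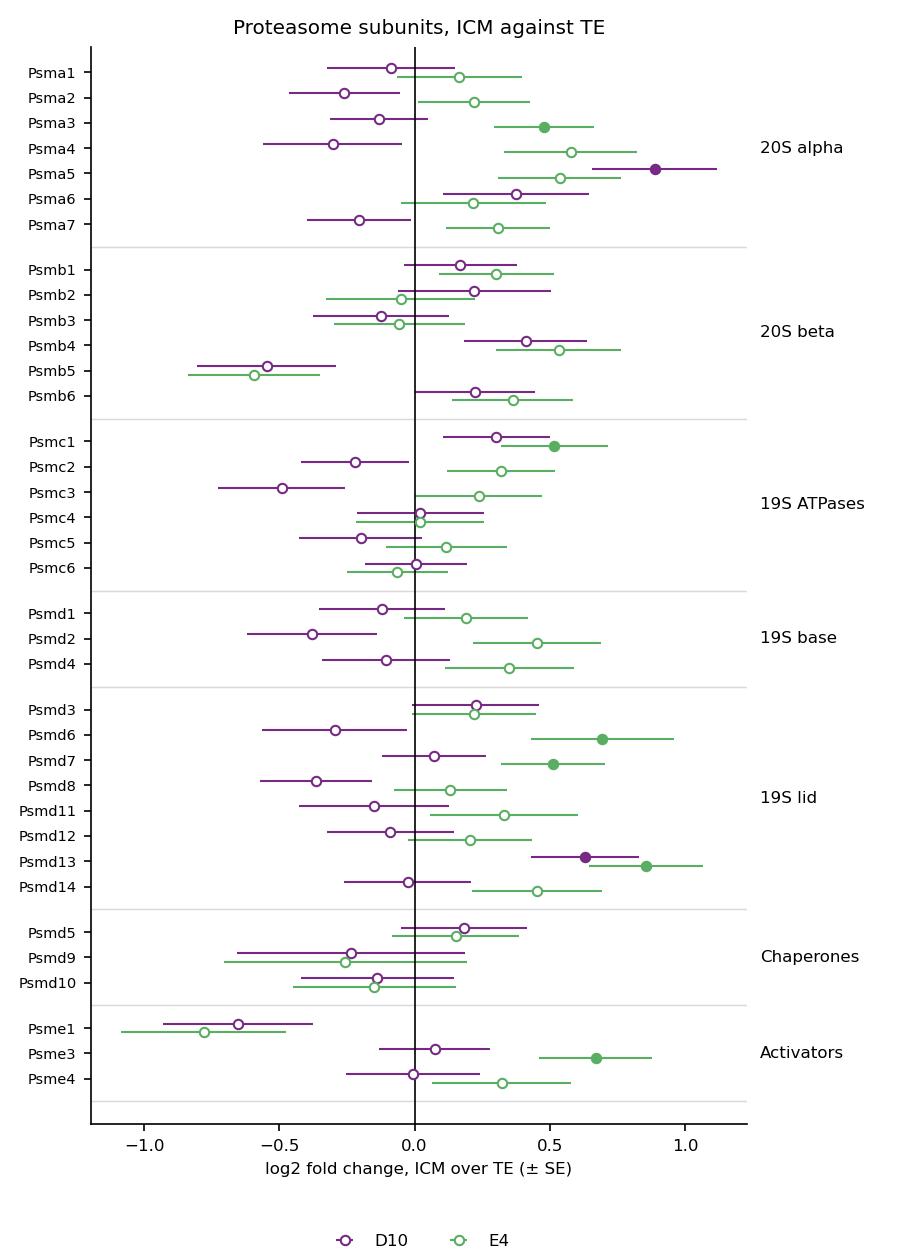
Log2 fold change of ICM over TE (x axis, ± SE) of the 36 tested proteasome subunits, grouped by class, at D10 (purple) and E4 (green). Filled points passed an adjusted p of 0.05, which held for Psma5 and Psmd13 at D10 and for 6 genes at E4, all to the right of 0.

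Other parts of the proteasome and its assembly factors were described from a separate list. Of 10 tested genes 4 were lower and 0 higher at D10 in the ICM, and 1 was lower and 0 higher in the TE. The share lower was 40% in the ICM, against 9.97% of all genes tested. In the TE it was 10%, close to the 9.89% of all genes. Higher at D10 were 13.7% of all genes in the ICM and 11.9% in the TE. Sem1, a small lid subunit outside the name pattern, was lower at D10 in both tissues (-0.69 ± 0.21 in the ICM, adjusted p = 0.0207, and -1.35 ± 0.21 in the TE, adjusted p = 3.59e-05). It had 142 ± 51.7 CPM in D10 ICM and 234 ± 20.4 in E4 ICM, 170.1 ± 23.4 in D10 TE and 435 ± 58.99 in E4 TE (SD, n = 5 each). The core assembly chaperones Psmg3 and Psmg4 were lower at D10 in the ICM (-1.05 ± 0.31 and -1.25 ± 0.42, adjusted p = 0.0141 and 0.033) and higher in E4 ICM than E4 TE (1.28 ± 0.32 and 2.03 ± 0.48, adjusted p = 0.0034 and 0.00207), and Psmg2 was the other gene lower in the ICM.

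Of 7 tested deubiquitinases, ligases and related factors that bind the proteasome, 2 were lower and 0 higher at D10 in the ICM, and 0 lower and 1 higher in the TE. In the ICM 28.6% were thus lower, against 9.97% lower and 13.7% higher over all genes tested. In the TE 14.3% were higher, close to the 11.9% of all genes, of which 9.89% were lower. Usp14, which trims ubiquitin chains at the proteasome, was lower at D10 in the ICM (-0.85 ± 0.21, adjusted p = 0.00395). Zfand5, which stimulates the proteasome, was higher at D10 in the TE (1.79 ± 0.31, adjusted p = 0.000143), where it had 695 ± 54.7 CPM in D10 libraries and 199 ± 107 in E4 libraries (SD, n = 5 each). Between the tissues at D10 4 of the 7 were lower in the ICM and 0 higher, or 57.1% lower, against 12.6% lower and 12.9% higher over all genes tested. At E4 1 was lower and 0 higher, or 14.3%, close to the 15.4% of all genes, of which 15.8% were higher. Zfand2a, a stress-induced partner, was lower in ICM than in TE at D10 and E4 (-1.47 ± 0.38 and -1.20 ± 0.37, adjusted p = 0.0053 and 0.0153).

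Upstream in the ubiquitin pathway, Uba1, the main enzyme that activates ubiquitin, was lower at D10 in the ICM (-0.74 ± 0.21, adjusted p = 0.0127). Rps27a, a ubiquitin fused to a ribosomal protein, was higher in E4 ICM than E4 TE (0.78 ± 0.21, adjusted p = 0.00584). Of 11 tested shuttle factors and partners of the unfoldase p97, 4 were lower and 0 higher at D10 in the ICM and 3 lower and 0 higher in the TE. These are 36.4% and 27.3% lower, where 9.97% and 9.89% of all genes tested were lower and 13.7% and 11.9% higher. Ddi2, the protease that activates NRF1, and Nsfl1c, a p97 cofactor, were lower in the ICM (-1.09 ± 0.26 and -0.99 ± 0.23, adjusted p = 0.00296 and 0.00318) and in the TE (-0.94 ± 0.23 and -0.94 ± 0.23, adjusted p = 0.00451 and 0.0039). Ufd1, another p97 cofactor, was lower in the ICM (-0.98 ± 0.22, adjusted p = 0.00214) with 0.13 ± 0.22 in the TE, and it passed the test of the difference of the changes (-1.11 ± 0.31, adjusted p = 0.0352).

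Of 9 tested transcription factors and regulators linked to proteasome genes, 1 was lower and 1 higher at D10 in the ICM, and 0 lower and 3 higher in the TE. The ICM shares, 11.1% lower and 11.1% higher, were close to the 9.97% and 13.7% of all genes tested. In the TE 33.3% were higher, where 9.89% of all genes were lower and 11.9% higher. Nfe2l1, which encodes NRF1, the activator of proteasome genes, was named after its values were seen. It had 25.9 ± 12.4 CPM in D10 ICM and 34.1 ± 8.42 in E4 ICM, 52.5 ± 11.9 in D10 TE and 74.2 ± 18.8 in E4 TE (SD, n = 5 each). It did not pass between the times (-0.35 ± 0.33 in the ICM, adjusted p = 0.479, and -0.48 ± 0.28 in the TE, adjusted p = 0.236). Foxo4 was higher at D10 in both tissues (1.56 ± 0.35 and 1.34 ± 0.32, adjusted p = 0.00202 and 0.00348), and Stat3, a signalling factor, in the TE (0.74 ± 0.21, adjusted p = 0.0135). Nfyb, a subunit of NF-Y, was higher in ICM than in TE at D10 and E4 (0.80 ± 0.24 and 1.10 ± 0.28, adjusted p = 0.0161 and 0.00333). Nfyc, another NF-Y subunit, named after its values were seen, was the gene lower at D10 in the ICM (-1.16 ± 0.29, adjusted p = 0.00449), with 0.42 ± 0.29 in the TE, and passed the test of the difference of the changes (-1.57 ± 0.41, adjusted p = 0.0218). It was higher in E4 ICM than E4 TE (0.91 ± 0.29, adjusted p = 0.0183) and had -0.66 ± 0.28 in D10 ICM against D10 TE (adjusted p = 0.0891).

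Of 5 tested interferon and antigen presentation genes, which immune signals raise together with the inducible subunits, 1 was higher and 0 lower at D10 in the ICM, and 1 higher and 1 lower in the TE. With so few genes 1 call is 20%. Over all genes tested 13.7% were higher and 9.97% lower in the ICM, and 11.9% and 9.89% in the TE. B2m, the light chain of class I molecules, was higher at D10 in both tissues (3.16 ± 0.44 in the ICM, adjusted p = 1.67e-05, and 1.93 ± 0.41 in the TE, adjusted p = 0.00129). H2-K1, a class I heavy chain, was lower at D10 in the TE (-3.90 ± 0.66, adjusted p = 0.000118) with 0.85 ± 0.51 in the ICM (adjusted p = 0.237), and passed the test of the difference of the changes (4.75 ± 0.84, adjusted p = 0.000946). H2-D1, another heavy chain, was lower in E4 ICM than E4 TE (-2.04 ± 0.46, adjusted p = 0.00127). The class I heavy chain genes are similar in sequence and differ between strains, so their counts are uncertain.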

How the data were processed

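Polyadenylated RNA was measured by BRB-seq, which reads 3′ ends: per the labels' protocols, 10 bases of molecular identifier (UMI) and 9 of barcode opened each pair, and its other read covered 81 bases of cDNA. The authors deposited raw counts per gene for 20 libraries. Named in the submitters' processing notes, without role or order, are GRCm38, GRCh38, featureCounts 2.0.1, HISAT2 2.2.1, Trim Galore 0.6.7 and UMI-tools. For the annotation, use of strand and any collapsing by UMI, a statement is not given in the sources used here, so counting intervals cover counting error only. 3′ counts do not depend on gene length, and no level was compared between genes. A table column per library was assigned to its group by its name, and 0 columns of values were unused.

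All genes were fitted with edgeR 4.0.16 (R 4.3.3, TMM, filterByExpr with a minimum count of 10, 6943 genes, 4 groups of 5 in 1 fit), with the quasi-likelihood test and Benjamini-Hochberg adjustment within each of 5 comparisons (threshold 0.05). Values are log2 fold changes ± SE, CPM with TMM factors, and means ± SD. The median of all genes shifted by at most 0.03 with DESeq2's size factors. Alternatives were those size factors, DESeq2 1.42.0, no filter, each of 20 libraries left out, the E4 litters with a zona left out, litter as a block, and, added after seeing the data, libraries with over 400000 counts. The members, gene lists and the naming rule were chosen with earlier results of these data known. The rule gave levels by library for up to 16 called members with the smallest adjusted p, the cutting subunits and the activators, and up to 3 called genes of each other list; 1 result of the list of ubiquitin genes and E1 enzymes, and that list's counts, are not reported here. The barcode list gives ICM and TE libraries of the same number the same litter within a time; their deviations from the group means correlated across genes at 0.104 to 0.263 at E4 and -0.0302 to 0.293 at D10. No libraries matched within counting noise. The code was tested on simulated data. Positions are from GENCODE M21 (GRCm38). Near-identical copies were searched with blastn 2.17.0 on the last 500 bases of the longest coding transcript (at least 95% identity over 80 bases). For Psma4, Psma5, Psmb3, Psmb5 and Psmd2 such copies held at most 1.76% of the summed counts. Psmd1 had a copy, Gm21972, 100% identical over 305 bases, and Psmc1 had 2 copies, all with 0 counts. These counts do not show how reads shared with a copy were counted.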

Additional observations from a re-analysis of the deposited data

Results flagged for a closer look

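In 148 checks of a group of 5 libraries, over 36 genes and the share of counts, 10 had a library far from the other 4 (Dixon's test, which marks about 1 in 20 groups by chance), or 6.76%. D10 TE replicate 4 was the highest of its group for Psmb2 (150.2 CPM, the others 78.2 to 84.0), Psmc2 (189, the others 134 to 149) and Psmc6 (187, the others 149 to 159). E4 TE replicate 2 was the highest for Psma7 (1253 CPM, the others 767 to 816) and Psmd12 (265, the others 139 to 165). Psma1 was lowest in D10 ICM replicate 5 (116 CPM, the others 214 to 244) and in D10 TE replicate 3 (148, the others 230.4 to 253). Psme3 was lowest in D10 ICM replicate 3 (188 CPM, the others 267 to 283) and in E4 TE replicate 1 (97.8, the others 217 to 246). Psme4 was highest in D10 ICM replicate 5 (186 CPM, the others 72.5 to 105).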

How the results depend on the processing

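The count of subunits lower at D10 in the ICM was 22 with DESeq2's size factors and with DESeq2, 21 with no filter on low counts and 16 without the E4 litters with a zona. The share of all genes lower in these ICM fits is not given here, so these counts are not set against it. In libraries with over 400000 counts it was 2, with a median log2 fold change of -0.31, and Psmd4 reversed to 0.033 (adjusted p = 0.960); the TE count was 6, the median difference between D10 tissues 0.16, against -0.10 in all libraries, that between the tissues' changes 0.11, against -0.27, and the E4 count of higher subunits 0. That choice was made after seeing the data, 1 total was tried, and depth, zona and group were not told apart. The TE count was 7 without the E4 litters with a zona. In E4 ICM against E4 TE the number higher was 2 with size factors, 1 with no filter and 1 without those litters, and the number lower was 1 with size factors and with DESeq2. With litter as a block it was 9 higher, against 6, and no call was lost at D10 (2 higher) or gained in the difference of changes (0). For these fits between the tissues the share of all genes called is not given here either, so their counts are not set against it.

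Leaving out 1 library gave 19 to 24 lower in the ICM, 8 to 12 lower in the TE, 1 to 2 higher and 0 to 1 lower between D10 tissues, and 1 to 4 higher and 0 to 2 lower between E4 tissues. The shares of all genes called in these fits are not given here, so these ranges are not set against them. In the ICM Psmb2 lost its call without E4 ICM replicate 2 or D10 ICM replicate 5 (edgeR, adjusted p 0.0511 to 0.0635), and Psmc1 without E4 ICM replicate 2 (0.0556). In the TE Psma6 lost it without E4 TE replicate 2 or 3 or D10 TE replicate 1, 2 or 3 (0.0572 to 0.0875), Psmc5 without E4 TE replicate 2 or 5 or D10 TE replicate 3 or 5 (0.0534 to 0.0633), and Psmd12 without E4 TE replicate 2 or D10 TE replicate 1 or 2 (0.071 to 0.127). Subunits that did not pass are not shown to be unchanged. The cause of these shifts was not tested.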

Other observations

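The share of counts in proteasome subunits ranked the 5 E4 litters in the same order in both tissues. From low to high, replicates 3, 4, 1, 5 and 2 held 0.943%, 1.01%, 1.15%, 1.29% and 1.43% in E4 ICM and 0.698%, 0.777%, 0.843%, 0.968% and 1.10% in E4 TE. Replicates 3 and 4 had 403723 and 438906 counts in the ICM and 466895 and 506584 in the TE, and the other 6 E4 libraries 144276 to 342278. At D10 the order was 3, 1, 5, 2 and 4 in the ICM (0.490% to 0.731%) and 3, 5, 2, 1 and 4 in the TE (0.532% to 0.749%).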
